A study of Bos taurus with 8 samples.

Results

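The genes described here are 40 components of WNT signalling, chosen by name as ligands, secreted modulators, receptors, cytoplasmic proteins and nuclear factors of the pathway. No measured value served as the rule, but earlier results of these data were known when the list was made. Of these 40 genes, 37 had a probe on the array and 31 gave enough signal to be tested, out of 15216 named genes on the array and 12941 tested. The cells were granulosa cells, the steroid-producing layer that lines the ovarian follicle and feeds the oocyte, scraped from single follicles over 9 mm in diameter from ovaries of Holstein cattle at a slaughterhouse. The study assigned follicles to phases by flow cytometry of DNA content, and the 2 groups compared were the plateau phase, in which growth of the dominant follicle has slowed, and the atretic phase, in which it regresses. RNA was amplified before labelling, and the reproductive status of the animals was unknown. The labels tie no follicle to a separate cow, so p-values measure only the spread between these samples. RNA from 4 atretic and 4 plateau follicles was hybridised in 4 pairs, each pair on 2 two-colour arrays with the dyes swapped. A value below is the log2 ratio of atretic over plateau in a pair, its mean is given ± SD over the 4 pairs, and a positive ratio is higher in the atretic follicle.

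WNT proteins are secreted lipid-modified ligands that bind Frizzled receptors on neighbouring cells. With the co-receptors LRP5 and LRP6 a bound Frizzled recruits Dishevelled and stops the complex of Axin, APC and GSK3 from marking beta-catenin for destruction, so that beta-catenin reaches the nucleus and acts with the TCF and LEF factors. Other branches run through ROR2 and RYK and do not need beta-catenin. In mouse and human ovaries the pathway is known for its part in female gonad development and in the function of granulosa cells. Roles given below come mostly from mouse, human and frog work.

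Median spot intensities lay between 163 and 285 in Cy5 and between 206 and 376 in Cy3. The background level of a follicle was taken as the 95th percentile of the negative control spots, which was a log2 intensity of 7.11 to 7.28. All 17 granulosa markers were above that level in at least 1 follicle, and 13 of them, with INHA, INHBA and FSHR, in all 8. The plateau follicle of pair 3 stood apart. Its summed intensity over 12 fibroblast and stroma markers was 156354, where the other 3 plateau follicles lay between 4906 and 8049 and the 4 atretic follicles between 6357 and 11493. Its sum over the granulosa markers was 81171, against 152703 to 396881 in the other plateau follicles and 230281 to 380607 in the atretic ones. Its smooth muscle and pericyte marker sum was 102411, against 11290 to 18970 in the other 7 follicles. Among the atretic follicles, that of pair 1 had the highest theca marker sum, 77754, where the other 3 lay between 13176 and 25151. The theca sums of plateau follicles spanned 20557 to 73553, with the highest in pair 3 and 62475 in pair 4. These sums are weighted to the brightest genes of the list, CYP11A1, FDX1 and STAR, at mean log2 intensities of 13.33, 12.49 and 12.40. In pair 1 the ratio was 1.77 for CYP17A1, 3.12 for STAR and 3.80 for LHCGR, but 0.43 for INSL3, -0.09 for PTCH1 and -0.34 for HHIP. Of the 9 theca markers tested, 5 were lower and 4 higher in the atretic follicle of pair 3, with PTCH1 at 2.61. All 20 mitotic genes had a mean ratio below 0, and 17 of them passed the threshold given below, against 2.91% of all tested genes. The study formed the groups by DNA content, with cells in S and G2 counted, so this result is not independent of the grouping. In bulk RNA, fewer cells of a type and less RNA per cell cannot be told apart.

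The comparison asked which WNT components differ between the plateau and the atretic phase. One secreted modulator, FRZB, was higher in atretic follicles and one co-receptor, LRP6, was lower, and the other 29 tested genes missed the threshold. The threshold is that of the study, a fold of 1.5 at an unadjusted p of 0.05 in limma, and p at this threshold is not corrected for the number of genes. The 1 of 31 members that was higher stands against 2.84% of all 12941 tested genes, and the 1 that was lower against 2.91%, so the pathway was called about as often as any gene. At an unadjusted p of 0.05 and any fold, 4 members passed (LRP6, FRZB, FZD1 and FZD4), against 9.6% of all genes. No member passed an adjusted p of 0.05, and neither did any other gene (0%). The median ratio over the 31 members was -0.03, where that of all genes was 0.00, and the median SD over pairs was 0.47 against 0.40. The 95% interval of the ratio lay within a fold of 1.5 for 14 members, against 42.5% of all genes, and 13 of those 14 had a mean log2 intensity under 8. A ratio of at least 1 in size in some pair was seen in 11 members, against 28.9% of genes, and of at least 2 in 6 members, against 6.17%. WNT5B and SFRP2 are in both counts, and they reached the mean log2 intensity of 7 required for testing only through the plateau follicle of pair 3.

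**Figure D1:**
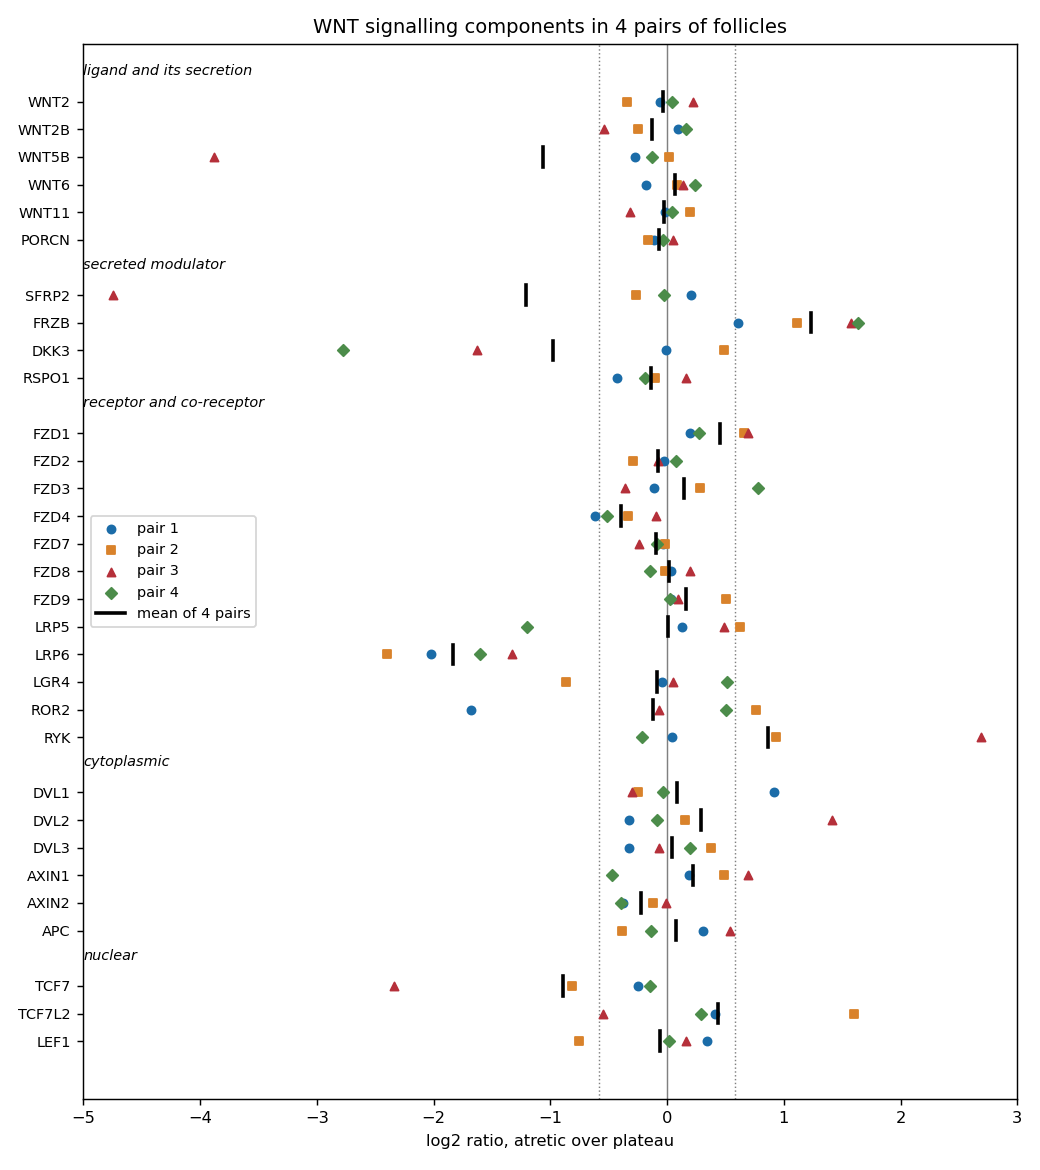
Log2 ratio of atretic over plateau for each of the 31 tested WNT genes, grouped by role, with a symbol for each of the 4 pairs and a bar at their mean; dotted lines mark a fold of 1.5. LRP6 (mean -1.83) lies left of 0 in every pair and FRZB (mean 1.23) right of it, while WNT5B and SFRP2 owe their negative means to pair 3 (-3.88 and -4.74).

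Signal limits what could be measured. Of the 31 tested members, 15 were above the background level in all 8 follicles. WNT4, FZD6 and GSK3B had no probe with their symbol and were not analysed here. The brightest probes of WNT5A, FZD5, FZD10, SFRP1, SFRP4 and ROR1 fell under the mean log2 intensity of 7 required for testing. The pair ratios of these 6 genes ranged from -0.57 to 0.38, and in none of them was more than 1 of the 8 follicles above background. SFRP1, a secreted Frizzled-related inhibitor, read 0.38, 0.10, 0.22 and 0.24 in pairs 1 to 4, but only 1 atretic follicle exceeded background.

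Among the ligands and their secretion, 6 genes were tested and 0 passed the threshold in either direction. WNT5B, a ligand that mostly signals without beta-catenin, had a log2 intensity of 7.07, 6.89, 11.22 and 7.01 in the plateau follicles of pairs 1 to 4. In the atretic follicles it was at 6.79, 6.91, 7.34 and 6.89. The plateau follicle of pair 3 was thus the one with clear signal, and the other 7 lay at or close to background. The ratios were -0.27, 0.02, -3.88 and -0.13, with a mean of -1.07 ± 1.88 (adjusted p = 0.803 in limma) that became -0.13 without pair 3. The other ligands WNT2, WNT2B, WNT6 and WNT11, and PORCN, the acyltransferase that attaches the lipid to WNT proteins, had means between -0.13 and 0.07. WNT2B was above background in all 8 follicles and had its highest level, 8.45, in the plateau follicle of pair 3. WNT6 and PORCN were also above background in all 8, and their levels spanned only 0.29 and 0.32 log2 units.

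Of the 4 secreted modulators tested, FRZB passed the threshold. FRZB, also called sFRP3, carries a Frizzled-like domain and binds WNT ligands outside the cell. Its log2 intensity was 6.42, 10.15, 7.22 and 7.30 in the plateau follicles of pairs 1 to 4 and 7.02, 11.27, 8.79 and 8.94 in the atretic ones. The atretic follicle was the higher one in every pair and on all 8 arrays, but the groups overlapped. The plateau follicle of pair 2 (10.15) was above the atretic ones of pairs 1, 3 and 4. The atretic follicle of pair 1 (7.02) was below the plateau ones of pairs 2, 3 and 4. In pair 1 both follicles were below background. FRZB rose by 0.61, 1.12, 1.57 and 1.64, a mean of 1.23 ± 0.48 or 2.35-fold (95% interval 0.72 to 1.75, adjusted p = 0.205 in limma). Without pair 1 the mean was 1.44 and without pair 3 it was 1.12. In a fit of all 8 arrays with pairs as the replicate block, where each RNA enters on 2 arrays, FRZB passed the adjusted threshold (adjusted p = 0.00638 in limma). That fit counts the 2 dye-swapped arrays of a pair as partly separate values. In it 549 of all probes passed the adjusted threshold, against 0 in the main fit. At the unadjusted threshold 1148 probes were higher and 1068 lower, against 721 and 672.

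The array held 3 probes of FRZB, and the rise rested on the brightest. The second probe read -0.07, 0.13, 0.17 and 0.03 and the third 0.19, 0.45, 0.40 and 0.40, with means of 0.07 and 0.36. All 3 means were above 0, but the dimmer probes missed the fold, and the average of the 3 probes, 0.55, missed it too. Which transcripts each probe matches was not analysed here. WNT6, LGR4, APC and TCF7L2 also had several probes, and none of those tested passed the threshold. The dimmer WNT6 probe and the dimmest TCF7L2 probe were under the required intensity and were not tested. The 3 probes of LGR4 had means of -0.08, -0.18 and -0.11, those of APC 0.08, 0.10 and 0.44, and those of TCF7L2 0.44, -0.02 and 0.03.

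**Figure D2:**
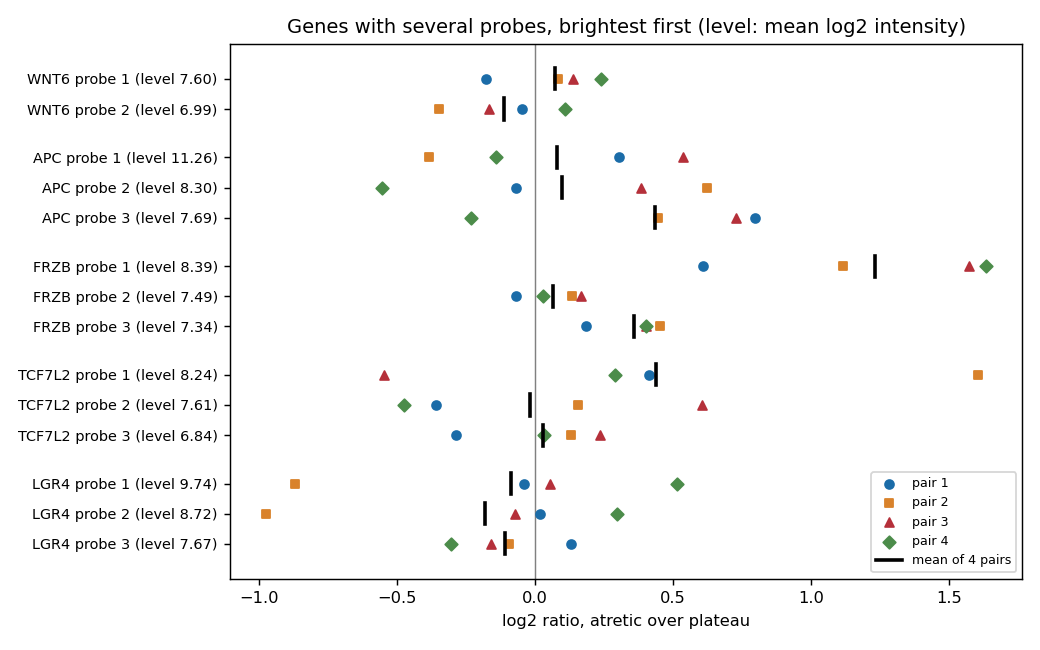
Log2 ratio of atretic over plateau for each probe of the 5 WNT genes with several probes, brightest first, with a symbol per pair and a bar at the mean; the level in brackets is the mean log2 intensity. The brightest FRZB probe (mean 1.23) stands apart from its other probes (0.07 and 0.36), and the 3 LGR4 probes lie between -0.18 and -0.08.

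SFRP2, another secreted Frizzled-related protein, was at 6.59, 6.96, 11.61 and 6.77 in the plateau follicles and at 6.79, 6.69, 6.86 and 6.75 in the atretic ones. Only the plateau follicle of pair 3 exceeded background. Its ratio in that pair was -4.74, taken against an atretic follicle below background, and the mean of -1.21 ± 2.36 (adjusted p = 0.824 in limma) was -0.03 without pair 3. DKK3, a secreted glycoprotein of the Dickkopf family, was at 7.05, 8.91, 9.60 and 9.97 in the plateau follicles and at 7.04, 9.40, 7.97 and 7.19 in the atretic ones. Its ratios were 0.00, 0.49, -1.63 and -2.78, so that pairs 3 and 4 were lower in the atretic follicle, pair 2 was higher and both follicles of pair 1 were below background. The mean of -0.98, with a 95% interval of -2.42 to 0.46, missed the threshold (adjusted p = 0.773 in limma) but passed it in the fit with the replicate block (adjusted p = 0.345 in limma). Without pair 4 it was -0.38. RSPO1, the R-spondin that amplifies WNT signalling and is needed for ovary development, was above background in all 8 follicles and had a mean of -0.14 ± 0.25.

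Of 12 receptors and co-receptors, LRP6 was lower and 0 were higher at the threshold. LRP6 is the single-pass co-receptor whose phosphorylated tail holds Axin at the membrane. Its log2 intensity was 14.53, 14.83, 14.50 and 14.30 in the plateau follicles and 12.52, 12.43, 13.18 and 12.71 in the atretic ones. The groups did not overlap, and the lowest plateau follicle was 1.12 above the highest atretic one. The fall of LRP6 had ratios of -2.02, -2.40, -1.32 and -1.60 in pairs 1 to 4, a mean of -1.83 ± 0.47 or 3.57-fold. Its 95% interval was -2.35 to -1.32, and its adjusted p of 0.166 in limma equalled the lowest of any probe. The ratio was below 0 on all 8 arrays, at -1.93 on slide 205 and -1.74 on slide 206. In the fit with the replicate block the adjusted p was 0.00154 in limma. Without pair 3, whose plateau follicle stood apart, the mean was -2.01, and without pair 1 it was -1.77.

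The LRP6 signal came from 1 probe, which followed a profile shared by many bright probes. A set of 162 probes of 97 named genes, each at a mean log2 intensity of at least 11, varied together over the 8 arrays, and their mean ratios in pairs 1 to 4 were -1.74, -1.86, -0.87 and -1.20, called the common fall here. LRP6 was itself among the 162 and correlated with the mean of the other 161 at 0.994 over the 8 arrays in Cy5 over Cy3, which is given as a description, since the dyes alternate and any fall of like size in all pairs gives a high value there. The profile was followed at a correlation above 0.9 by 401 probes, 1.2% of those tested, which made up 300 of the 672 lower probes (44.6%). LRP6 was the 1 member of 31 that did so, against 1.48% of all genes, and 0 members mirrored it at below -0.9, against 0.889%. The part of this profile in the LRP6 result was not tested. LRP5, its close paralogue, read 0.12, 0.63, 0.49 and -1.20, a mean of 0.01 ± 0.83, with the negative value in pair 4 alone.

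**Figure D3:**
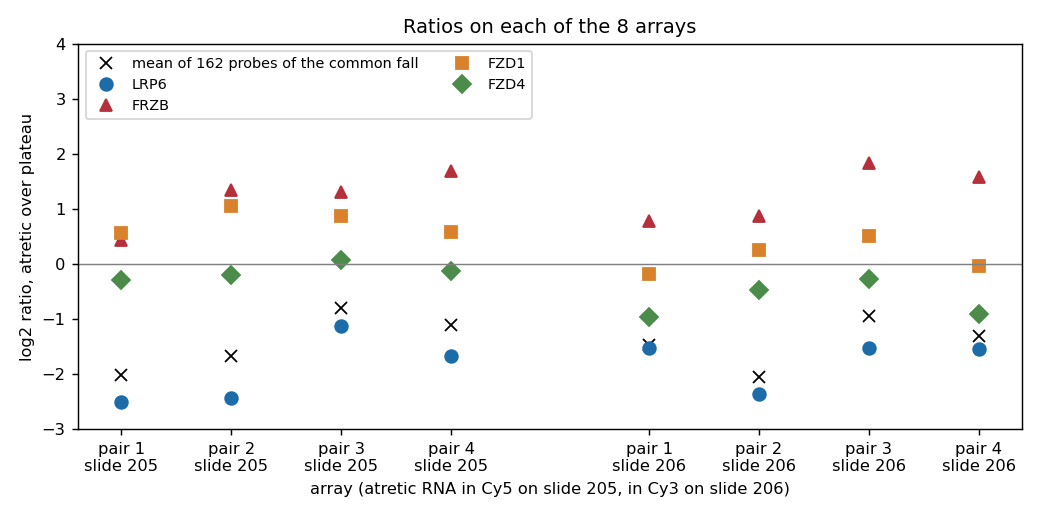
Log2 ratio of atretic over plateau on each of the 8 arrays, 4 with the atretic RNA in Cy5 (slide 205) and 4 with the dyes swapped (slide 206), for LRP6, FRZB, FZD1, FZD4 and the mean of the 162 bright probes that vary together. LRP6 moves with that mean and is below 0 on all 8 arrays, FRZB is above 0 on all 8, and FZD1 and FZD4 differ between the slides.

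FZD1, a Frizzled receptor, was at 9.19, 8.08, 8.49 and 9.56 in the plateau follicles and at 9.39, 8.74, 9.18 and 9.84 in the atretic ones. The atretic follicle was the higher in each pair, while the groups overlapped. The ratios of 0.20, 0.66, 0.69 and 0.27 gave a mean of 0.46 ± 0.26, short of the fold of 1.5 (adjusted p = 0.546 in limma). FZD4, the Frizzled that also binds Norrin, went the other way, at 7.92, 8.11, 8.16 and 8.02 in the plateau follicles and 7.30, 7.78, 8.07 and 7.50 in the atretic ones. All 8 were above background, and the atretic follicle was the lower in each pair, with 1 atretic follicle inside the plateau range. The ratios of -0.62, -0.33, -0.10 and -0.51 gave a mean of -0.39 ± 0.23 (adjusted p = 0.599 in limma). Both means depended on the slide. FZD1 was 0.77 on slide 205, past the threshold, and 0.14 on slide 206, and FZD4 was -0.13 and -0.65, past the threshold on slide 206. Slide and dye orientation cannot be told apart.

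The other Frizzled receptors tested, FZD2, FZD3, FZD7, FZD8 and FZD9, had means between -0.10 and 0.16, and of these FZD8 alone was above background in all 8 follicles. LGR4, the R-spondin receptor, was above background in all 8 and read -0.04, -0.87, 0.05 and 0.52. ROR2, a receptor tyrosine kinase for ligands such as WNT5A, had both its extremes in plateau follicles: it was highest in the plateau follicle of pair 1, at 11.88, and lowest in that of pair 2, at 9.00. Its ratios were -1.68, 0.76, -0.07 and 0.50, a mean of -0.12 ± 1.10.

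RYK, an atypical receptor with a WNT-binding domain and no active kinase, was at 11.67, 9.42, 8.43 and 11.79 in the plateau follicles and at 11.71, 10.35, 11.12 and 11.58 in the atretic ones. The atretic follicles lay within the plateau range, and the lowest value was that of the plateau follicle of pair 3. The ratios were 0.04, 0.93, 2.69 and -0.21, and the mean of 0.86 ± 1.31 (adjusted p = 0.771 in limma) was 0.25 without pair 3. It passed the threshold in the fit with the replicate block (adjusted p = 0.357 in limma).

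**Figure D4:**
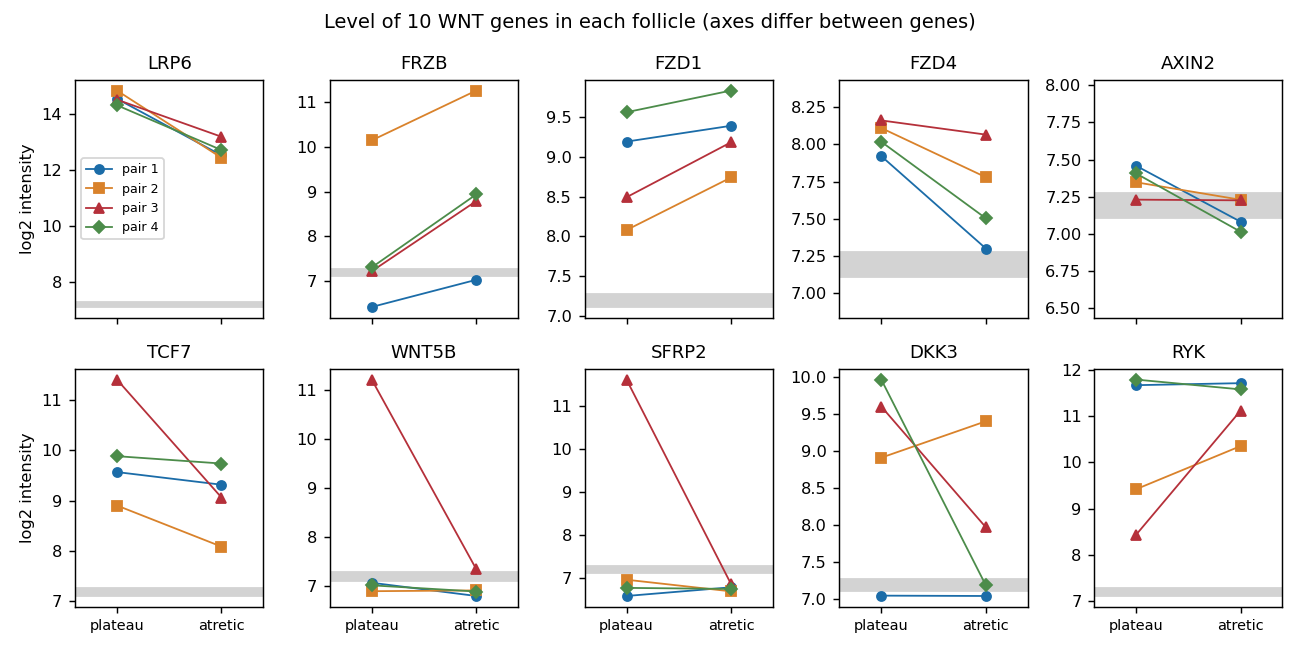
Log2 intensity of 10 WNT genes in the 4 plateau and the 4 atretic follicles, with a line joining the 2 follicles of a pair; the grey band is the range of the background level (7.11 to 7.28), and the vertical axes differ between genes. LRP6 separates the groups, FRZB is higher in the atretic follicle of each pair but overlaps between groups, and the plateau follicle of pair 3 is far above the other 7 for WNT5B (11.22) and SFRP2 (11.61).

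None of the 6 cytoplasmic members passed the threshold, and their means lay between -0.22 and 0.29. The Dishevelled proteins DVL1, DVL2 and DVL3 relay the signal from Frizzled. DVL2 was at 13.48, 13.36, 11.70 and 14.14 in the plateau follicles and between 13.11 and 14.05 in the atretic ones, so that the plateau follicle of pair 3 was the lowest, and its ratio in that pair was 1.41 where the other pairs lay between -0.32 and 0.15. DVL1 and DVL3 were above background in 3 and 5 of 8 follicles, with means of 0.08 and 0.04.

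AXIN1, the scaffold of the destruction complex, read 0.19, 0.49, 0.69 and -0.47 (mean 0.22 ± 0.51), and APC, its partner, 0.31, -0.38, 0.54 and -0.14. Both were above background in every follicle and changed sign between pairs. AXIN2, a negative regulator that is itself a target of beta-catenin signalling, was at 7.46, 7.35, 7.23 and 7.41 in the plateau follicles and at 7.08, 7.23, 7.23 and 7.02 in the atretic ones. Its groups did not overlap, but the lowest plateau and the highest atretic follicle both rounded to 7.23, and 2 atretic follicles were below background. The ratios were -0.38, -0.12, 0.00 and -0.39, a mean of -0.22 ± 0.19 (adjusted p = 0.766 in limma).

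Among the 3 nuclear factors tested, 0 passed the threshold. TCF7, which binds DNA and takes beta-catenin as its co-activator, was at 9.57, 8.91, 11.41 and 9.88 in the plateau follicles and at 9.32, 8.09, 9.06 and 9.74 in the atretic ones. The plateau follicle was the higher in every pair and on all 8 arrays, and that of pair 3 was the highest of all. The ratios of -0.25, -0.82, -2.34 and -0.15 gave a mean of -0.89 ± 1.01 (adjusted p = 0.701 in limma), which was -0.40 without pair 3. In the fit with the replicate block TCF7 passed the threshold (adjusted p = 0.185 in limma), and it did so on slide 206 alone, at -0.95. TCF7L2 read 0.41, 1.61, -0.55 and 0.29 (mean 0.44 ± 0.89), and LEF1, the third factor of this family, had a mean of -0.06 ± 0.48.

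Some members had 1 sign in all 4 pairs. FZD1, FRZB and FZD9 were higher in the atretic follicle of all 4 pairs (9.68% of members), against 8.55% of all genes. LRP6, TCF7, FZD4, FZD7 and AXIN2 were lower in all 4 (16.1%), against 8.35%. Some of these ratios were close to 0, such as AXIN2 in pair 3 (-0.005) and FZD7 in pair 2 (-0.02). The 4 atretic follicles lay below all 4 plateau follicles for 2 members, LRP6 and AXIN2, against 1.22% of genes, and above them for 0 members, against 1.55%. AXIN2 enters that count by a near tie, since its lowest plateau and highest atretic level both rounded to 7.23, close to background.

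Several members had their extreme value in the plateau follicle of pair 3. WNT5B, SFRP2 and TCF7 were more than 1 log2 unit higher there than in any of the other 7 follicles, against 3.22% of all genes, and DVL2 was more than 1 log2 unit lower, against 1.46%. WNT5B and SFRP2 reached the mean log2 intensity of 7 required for testing only through this follicle. A high level there was thus a condition of their being tested. In the same pair the fibroblast and stroma markers had a mean ratio of -3.02 and the granulosa markers one of 2.11, with 9 of the 12 stroma markers lower and 14 of the 17 granulosa markers higher in the atretic follicle. The smooth muscle and pericyte markers had a mean ratio of -1.03 there, with 7 of 10 lower, and the mitotic genes one of -2.29, with 20 of 20 lower. In pairs 1, 2 and 4 the stroma markers were at 0.93, -0.48 and -0.01 and the granulosa markers at -0.08, 0.69 and -0.41. The smooth muscle and pericyte markers were at 0.17, -0.05 and -0.66 in those pairs. The mitotic genes had a mean ratio below 0 there too, at -1.33, -0.37 and -1.48, so their fall was not particular to pair 3. The collagen gene COL1A2 (-6.93) and the proteoglycan gene LUM (-5.36) were lower in the atretic follicle of pair 3, as SFRP2 and WNT5B were. Aromatase (CYP19A1, 4.60) and the inhibin subunit INHA (4.47) were higher, as RYK and DVL2 were. Other markers went against their lists there. The 3 stroma markers that were higher included TCF21 (1.38), and the 3 granulosa markers that were lower included CDH2 (-2.38). Of the 3 smooth muscle and pericyte markers that were higher, MYH11 was at 5.04. A profile of 129 bright probes that varied together, with mean ratios of -0.21, 0.34, 2.50 and -0.04, was followed or mirrored at a correlation above 0.9 in size by 5 of the 31 members (WNT5B, SFRP2, TCF7, RYK and DVL2), against 6.82% of all genes. WNT5B and SFRP2 enter this count under the same limit of the intensity filter. The part of these cell type markers in the values of the 5 genes was not tested. Without pair 3, LRP6 and FRZB were still the members past the threshold.

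**Figure D5:**
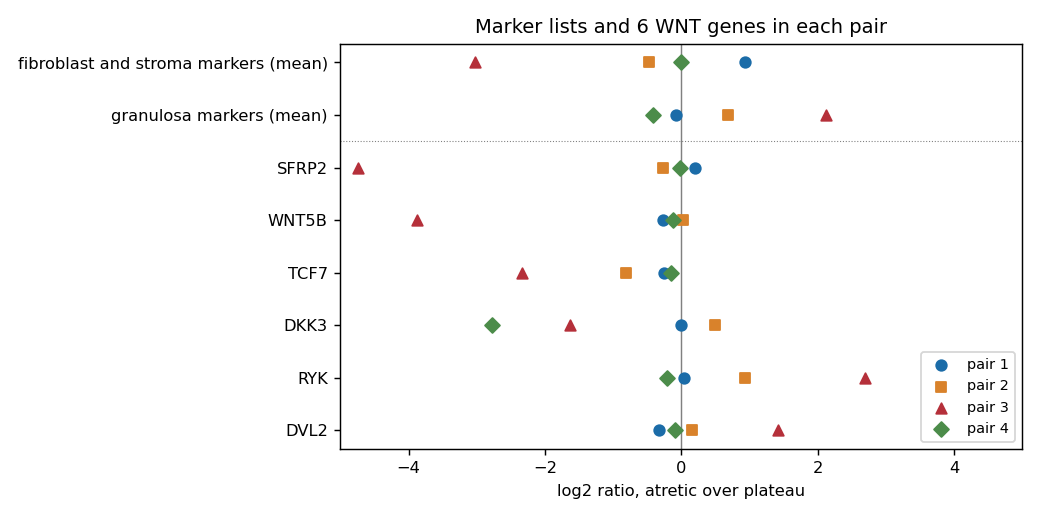
Log2 ratio of atretic over plateau in each of the 4 pairs for the mean of 12 fibroblast and stroma markers, the mean of 17 granulosa markers and 6 WNT genes. In pair 3 SFRP2 (-4.74), WNT5B (-3.88) and TCF7 (-2.34) lie on the side of the stroma markers (-3.02), and RYK (2.69) and DVL2 (1.41) on that of the granulosa markers (2.11), while DKK3 is lowest in pair 4 (-2.78).

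A further 119 genes of the pathway were listed by role, of which 93 were tested. At the threshold 3 were higher (3.23%, against 2.84% of all genes) and 3 lower (3.23%, against 2.91%), and their median ratio was -0.02. WLS, the carrier that takes WNT proteins to the cell surface, rose by 0.70, 1.38, 0.37 and 0.85, a mean of 0.83 ± 0.42 (adjusted p = 0.360 in limma), on all 8 arrays. It was the 1 gene past the threshold of 16 for ligands and secretion, WNT5B and PORCN among them. No further secreted antagonist or R-spondin (9 tested), receptor (6 tested) or nuclear cofactor (18 tested) passed.

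In the cytoplasmic list (21 tested) the casein kinase subunit CSNK2A2 was higher, at 0.89 ± 0.65, with 0.27 at its other probe, and the SUMO protease SENP2 was lower, at -1.08 ± 0.27. In the planar polarity list (15 tested) the kinase MAPK8 was lower, at -1.42 ± 0.63, while its other probe, under the required intensity, read -0.03. Both SENP2 and MAPK8 followed the profile of bright probes that LRP6 followed, at 0.981 and 0.995, and WLS mirrored it, at -0.948. Over all genes 1.48% followed it above 0.9 and 0.889% mirrored it below -0.9. As for LRP6, these values are a description, since any rise or fall of like size in all pairs gives a value large in size there. Among 20 target genes of the pathway, AXIN2, LEF1 and TCF7 included, TNFRSF19 was higher at 0.69 ± 0.59 and BIRC5 was lower at -1.20 ± 0.47. BIRC5 encodes survivin, which also works in mitosis, and its other probe read -1.59. CTNNB1, the beta-catenin gene, chosen after its values were seen, read -0.03, 0.78, 0.00 and -0.34, a mean of 0.10 ± 0.48.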

How the data were processed

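The authors scanned 2 slides of 8 two-colour EmbryoGENE arrays and deposited a median intensity and a local background of each spot and channel. A deposited matrix of log2 ratios matched Cy5 over Cy3 computed here in each column (r = 0.999689 to 0.999926, column medians -0.0289 to -0.00543) and served as an alternative. Probes were named through the platform annotation, with symbols of 1524 probes updated from gene records of assembly ARS-UCD2.0. Of 43794 gene probes, 21790 had 1 symbol and 22004 none.

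Intensities were corrected by normexp (offset 50, which draws ratios of dim probes towards 0), then normalised by loess (span 0.3, control spots and the 7 to 35 marked spots per array at weight 0) and by quantiles between arrays, in limma. Ratios were then set to atretic over plateau. Arrays are numbered within each slide, and no label states whether a number marks the same RNA on both. After removal of each slide's mean, equal numbers correlated at 0.761 to 0.866 and unequal numbers at -0.488 to -0.0325, so arrays of equal number were averaged, giving 4 pairs of follicles. The 33519 probes of mean log2 intensity at least 7 were fitted with lmFit and eBayes and adjusted by Benjamini and Hochberg over all of them. The brightest probe stood for its gene. A follicle's level is its log2 intensity averaged over its 2 arrays. The number of pairs limits the precision.

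The members and lists were chosen with earlier results of these data known. Values in each pair were given for members past the threshold, for those with 1 sign in all 4 pairs and a mean of at least 0.3 in size, and for those with a ratio of at least 2 in size in any pair. Other members were given by range, with up to 3 examples a role. AXIN2 and DVL2 were shown in full for the overlap counts. Alternatives changed background correction, normalisation, filter, probes of a gene, variance model, replicate block, slide, source of values and the omission of each pair. Omitting the probes of either profile was chosen after seeing the data. Scripts ran in R 4.3.3 (limma 3.58.1, statmod 1.5.0) and Python 3.11.15 (matplotlib 3.10.9).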

Additional observations from a re-analysis of the deposited data

Results flagged for a closer look

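In 3 of the 31 members 1 pair lay far from the other 3, by Dixon's ratio of the gap to the range at its 95% level, which chance passes in about 1 group in 20; among all genes 5.84% passed. WNT5B had a ratio of 0.926 and SFRP2 one of 0.905, both through pair 3, at -3.88 and -4.74. Both genes reached the intensity required for testing only through the plateau follicle of that pair. FZD9, the receptor Frizzled 9, had a ratio of 0.854 through pair 2, where it read 0.50 against 0.02 to 0.09 in the other pairs, at a level close to background.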

How the results depend on the processing

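None of the 9 members given in full by rule changed direction in the 19 to 21 alternatives each had. Between the slides alone, 12 other members changed sign, with means of up to 0.22 in size (AXIN1, at -0.08 on slide 205 and 0.52 on slide 206). FRZB stayed higher and LRP6 lower at the threshold with every pair left out in turn, on each slide alone, in the authors' table of log2 ratios, and under each background correction and normalisation tried. Members higher numbered 0 where probes had to exceed the negative controls in every pair (20 members tested, FRZB not among them), and 0 when a gene's probes were averaged (FRZB at 0.55). They numbered 2 on slide 205 alone (FZD1 and FRZB), and 2 with the replicate block, with or without a dye term (FRZB and RYK). Members lower numbered 3 with the replicate block, with or without a dye term (LRP6, DKK3 and TCF7), 3 on slide 206 alone (FZD4, LRP6 and TCF7) and 0 without the probes of the common fall, a count fixed by construction because LRP6 is one of those probes. With the replicate block 2 members, LRP6 and FRZB, passed an adjusted p of 0.05 (549 of all probes did), and 2 did with a dye term added (436 of all probes). The adjusted p of LRP6 ranged from 0.00154 to 0.576 over the alternatives and that of FRZB from 0.00638 to 0.705. The median ratio of the members was -0.0183 without background correction, -0.0106 on slide 205, -0.0932 on slide 206 and -0.0726 to -0.0102 with a pair left out. Of 31 members, 16 were not above background in all 8 follicles, where ratios are limited by signal.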
